A study of Mus musculus with 12 samples.

Results

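A set of 9 miRNA precursors known from epithelia and the anterior eye was followed through the retina of diabetic mice: mmu-mir-203, mmu-mir-184, mmu-mir-31, mmu-mir-205, and the miR-200 family of mmu-mir-200a, mmu-mir-200b, mmu-mir-200c, mmu-mir-141 and mmu-mir-429, written below without the species prefix. They were chosen by name from 1532 precursors with reads. Their reads were taken from the small RNA tables of 12 libraries. Each read was given to the 5p or 3p arm of the hairpin by the side of the middle on which it lay. Of 18 possible mature arms, 16 had reads on their side of the hairpin. After edgeR's filter on low counts, 7 were tested among 811 arms. For miR-200c-5p, miR-203-5p and miR-429-5p the only reads were of 15 or 16 nt, and none began at the mature start. No read was listed for miR-141-5p or miR-205-3p. Together the 9 precursors held 101604 of 62878432 counted reads.

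The libraries came from db/db mice on a C57BL/KsJ background, whose leptin receptor does not work, so that they turn obese and diabetic. In 6 libraries the mice had been treated with Keluoxin, a Chinese herbal capsule, and the other 6 carry the label model, read here as untreated db/db mice. The sources used here give no dose, duration or age. Both groups share the diabetic genotype, and non-diabetic mice were not analysed here. By its source label the material was retina, but the protocol mentions RNA from an exosome pellet. Whether each library stands for its own animal is not stated in the labels; p-values therefore reflect the spread among samples, some of which may be technical. Keluoxin libraries held 1933375 to 6066429 counted reads and model libraries 3819945 to 7892147.

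MiRNAs repress mRNAs that pair with their seed, the short stretch near the 5′ end. The miR-200 family holds cells in an epithelial state by repressing the transcription factors ZEB1 and ZEB2. MiR-203 drives skin cells out of the progenitor state by repressing p63, and miR-205 is a miRNA of basal epithelial cells. MiR-184 is highly abundant in the epithelia of cornea and lens, and a change in its seed causes a human disease of cornea and lens. MiR-31 is expressed in keratinocytes and hair follicles. None of them is a defining miRNA of the neural retina.

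The mature sequences of the more abundant arms are shown because the 5 miR-200 members fall into only 2 groups by seed, and because later results turn on the 2 ends of these molecules. They are those of RefSeq for GRCm38.p6, written 5′ to 3′, with the seed (bases 2 to 8) in capitals. All 9 precursor hairpins of the deposited tables matched RefSeq's.
miR-203-3p: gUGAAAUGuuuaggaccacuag
miR-184-3p: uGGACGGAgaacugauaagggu
miR-31-5p: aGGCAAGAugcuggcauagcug
miR-205-5p: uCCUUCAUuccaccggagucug
miR-200b-3p: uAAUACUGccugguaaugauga
miR-200c-3p: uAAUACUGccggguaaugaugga
miR-429-3p: uAAUACUGucugguaaugccgu
miR-200a-3p: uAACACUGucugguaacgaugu
miR-141-3p: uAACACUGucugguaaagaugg
MiR-200b, miR-200c and miR-429 share one seed, and miR-200a and miR-141 the other. Counted from the 5′ end, the first 8 bases of miR-200a-3p and miR-200b-3p differ only by C4U. Within a seed group, miR-200b-3p and miR-200c-3p differ by U11G and A22G, and miR-200a-3p and miR-141-3p by C17A and U22G.

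The seed groups cut across the genes' positions. In the GRCm38 assembly mir-200b (156055681 to 156055750), mir-200a (156054896 to 156054985) and mir-429 (156053905 to 156053987) lie on the minus strand of chromosome 4, over 1846 bp in introns of Ttll10. Mir-200c (124718322 to 124718390) and mir-141 (124717914 to 124717985) lie on the minus strand of chromosome 6, over 477 bp in an intron of Gm15884. On the same strand, mir-429 also overlaps an exon of Gm13648, and mir-141 an exon of Gm29008. Mir-203 (plus strand of chromosome 12, 112130880 to 112130955) and mir-184 (chromosome 9, minus strand, 89802260 to 89802328) overlap no other annotated gene. Mir-205 is on chromosome 1 at 193507463 to 193507530 in an exon of the long non-coding RNA 4631405K08Rik, and mir-31 on chromosome 4 at 88910557 to 88910662 in an exon of another, AL805899.1.

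The libraries had the miRNAs of a neural retina. The summed level of miR-182, miR-183, miR-96, miR-124 and miR-9, the defining miRNAs of photoreceptors and retinal neurons, was lowest at 275182, at the median 430183 and highest at 499810 CPM in Keluoxin libraries. In model libraries it was 466877, 499025 and 547300 CPM (CPM, read counts scaled to library size after TMM normalization). The 16 arms with reads, in contrast, made up 0.0201% to 0.0687% of the reads in 11 libraries and 1.39% in Keluoxin replicate 4, which stood apart from all others and is treated with the arms that set it apart.

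**Figure D1:**
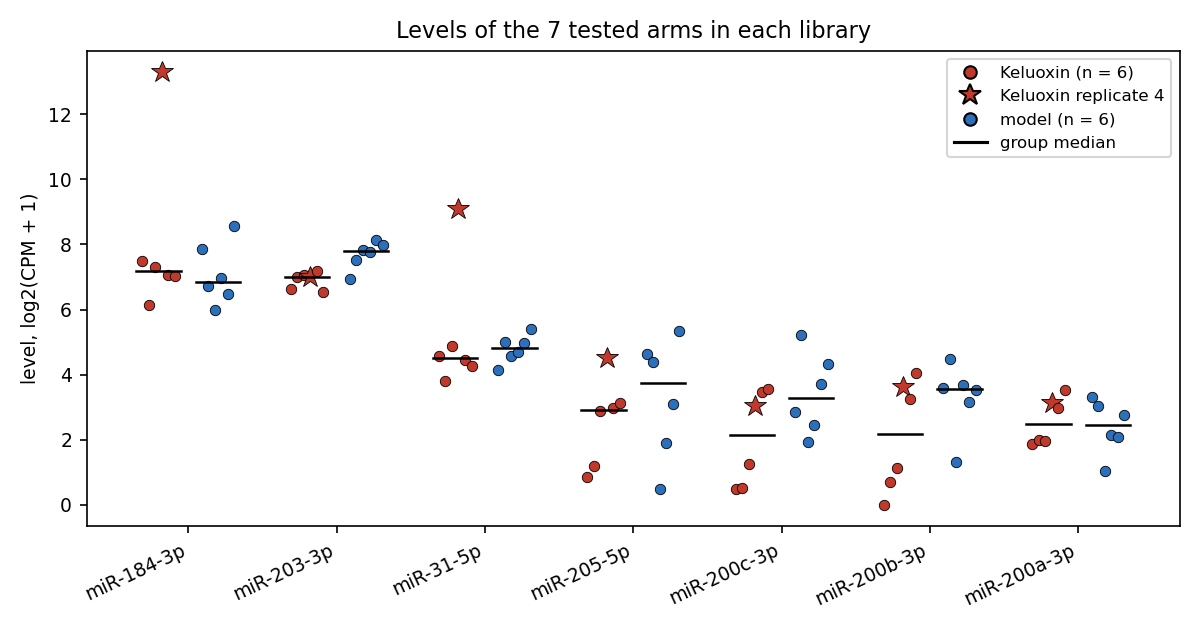
Level of each of the 7 tested arms, as log2(CPM + 1) on the vertical axis, in each of 6 Keluoxin (red) and 6 model (blue) libraries; black lines are group medians and the star is Keluoxin replicate 4. For miR-203-3p the Keluoxin points sit at 92.1 to 145 CPM and the model points at 123 to 282 CPM, while the star stands far above all other points for miR-184-3p (9995 CPM) and miR-31-5p (543 CPM).

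Of the 7 tested arms only miR-203-3p passed the test of levels, and it was lower in Keluoxin retina. Of all 811 arms 17.3% passed the test (quasi-likelihood test of edgeR, p adjusted by Benjamini-Hochberg over all arms, threshold 0.05), 8.01% as lower, and of the 511 arms of annotated precursors 13.7%. A count of 1 in 7 is thus close to the share over all arms. At an unadjusted p under 0.05, 2 of the 7 passed. The log2 fold changes were above 0 for 3 arms and below 0 for 4, with a median of −0.79, against 0.03 over all arms. The ranges of the 2 groups overlapped for all 7.

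MiR-203-3p was lowest at 92.1, at the median 126 and highest at 145 CPM in Keluoxin libraries, against 123, 220 and 282 CPM in model libraries. All 6 Keluoxin libraries lay below the 5 higher model libraries. Only model replicate 1, at 123 CPM, fell inside the Keluoxin range. The means were 120 ± 20.5 CPM in Keluoxin and 213 ± 55.7 in model retina (SD, n = 6 each), a log2 fold change of −0.82 (SE 0.19, edgeR adjusted p = 0.0161).

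The call for miR-203-3p held in 12 of 12 fits that left out 1 library each, with log2 fold changes of −0.95 to −0.73 and edgeR adjusted p of 0.00190 to 0.0418. Under other scalings of the libraries its log2 fold change was −0.63 (total reads), −0.86 (RLE) and −1.11 (upper quartile), and each passed. These scalings also moved the median of all arms, which was 0.22 with total reads and −0.23 with the upper quartile. In Keluoxin replicate 4, the library that stood apart for other arms, miR-203-3p was at 127 CPM, which is 0.874 times the median of the other 11 libraries. In bulk tissue, fewer cells of a type and less RNA per cell cannot be told apart.

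Reads of miR-203-3p began at 2 positions. The canonical start held 69.2% of its reads (7327 reads), and a start 1 base later held 29.8% (3154). The most frequent reads of these starts, given here as DNA letters with bases 2 to 8 in capitals, show that the later start gives the molecule another seed.
miR-203-3p, canonical start, 2499 reads: gTGAAATGtttaggaccactag
miR-203-3p, start 1 base later, 1135 reads: tGAAATGTttaggaccactag
The later start made up 27.3 ± 3.59% of miR-203-3p reads in Keluoxin and 31 ± 2.55% in model libraries (SD, n = 6 each). The ranges were 20.7% to 31.5% in Keluoxin and 28.2% to 34.4% in model libraries and overlapped. The lowest share, 20.7% in Keluoxin replicate 5, rested on 57 of 275 reads (exact 95% interval 16.1% to 26%, counting error only, since reads without molecular identifiers are not independent molecules). The share at the most frequent start, the canonical one, was 71.5 ± 3.83% in Keluoxin and 68.1 ± 2.64% in model libraries (limma adjusted p = 0.372). This test passed for 3.66% of the 383 arms whose reads numbered 50 or more in each library. Of all miR-203-3p reads, 44.4% carried the tables' mark for repeated alignment but were listed on mir-203 alone and not divided.

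MiR-184-3p had the highest single value of the set, and it lay in one library. It was lowest at 70.0, at the median 144 and highest at 9995 CPM in Keluoxin libraries, against 62.1, 115 and 380.4 CPM in model libraries. The 9995 CPM belonged to Keluoxin replicate 4, and the other 5 Keluoxin libraries, at 70.0 to 179 CPM, lay inside the model range. The log2 fold change over all 12 libraries was 3.43 (SE 1.32, edgeR adjusted p = 0.0884) and did not pass. Without Keluoxin replicate 4 it was −0.31 (SE 0.45, adjusted p = 0.644), with 15.7% of 810 arms passing that fit and means of 133 ± 40.7 CPM in Keluoxin (n = 5) and 165 ± 120 in model retina (n = 6).

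MiR-31-5p followed the same course. It was lowest at 13.1, at the median 21.8 and highest at 543 CPM in Keluoxin libraries, against 16.5, 27.6 and 41.4 CPM in model libraries. The highest value was again that of Keluoxin replicate 4, and the other 5 Keluoxin libraries held 13.1 to 28.4 CPM. The log2 fold change was 1.96 (SE 0.93, edgeR adjusted p = 0.152) over all libraries and −0.42 (SE 0.26, adjusted p = 0.273) without that library. The groups then averaged 20.7 ± 5.68 CPM in Keluoxin (n = 5) and 27.8 ± 8.55 in model retina (n = 6).

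**Figure D2:**
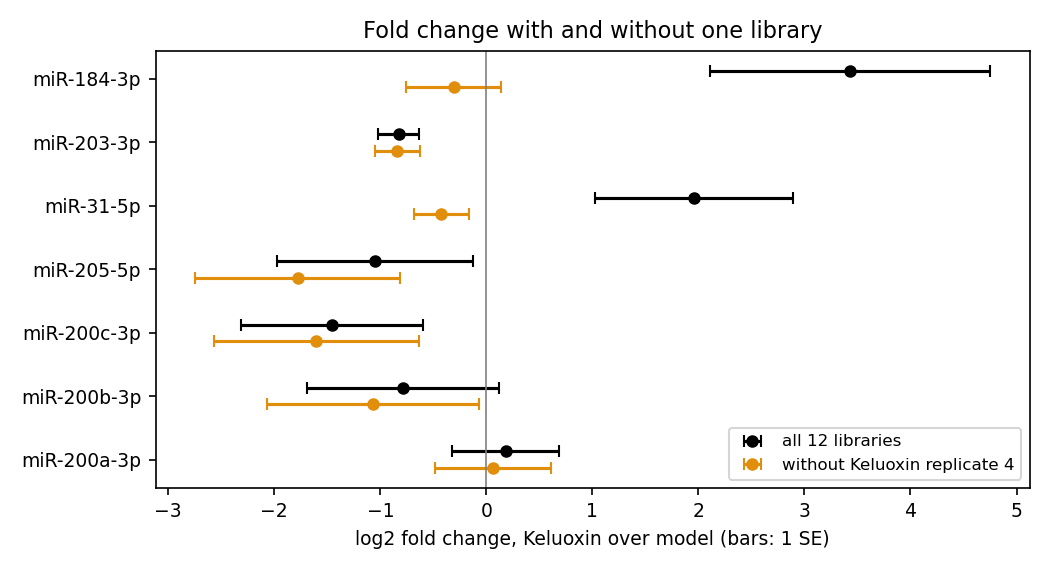
Log2 fold change, Keluoxin over model, of the 7 tested arms from edgeR with all 12 libraries (black) and without Keluoxin replicate 4 (orange); bars are 1 SE. MiR-184-3p is at 3.43 with all libraries and at −0.31 without that library, miR-31-5p at 1.96 and −0.42, and miR-203-3p at −0.82 and −0.84.

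In Keluoxin replicate 4, miR-184-3p had 75503 reads, 1.30% of that library (exact 95% interval 1.29% to 1.31%), and was its 18th most abundant arm. In the other 11 libraries it ranked between 124 and 299. Its level there was 26.3 times that of the next highest library and 76.4 times the median of the other 11. MiR-31-5p, with 4101 reads, was 13.1 times the next highest and 23.6 times the median. Of all reads of mir-184, 90.7% were in Keluoxin replicate 4, and of mir-31 75.3%. The minor arm of mir-31 went with the major one: miR-31-3p had 110 of its 128 reads there (14.6 CPM). MiR-184-5p, the minor arm of mir-184, had 12 of its 13 reads there.

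The other epithelial arms did not stand out to this extent in Keluoxin replicate 4. Relative to the median of the other 11 libraries, miR-205-5p was 3.16 times as high, miR-200a-3p 2.22, miR-200b-3p 1.35 and miR-200c-3p 1.16. All 4 lay within the range of the other libraries. Of the 511 annotated arms tested, 61 (11.9%) were highest in this library, only 3 exceeded the next library by more than 5 times, and miR-184-3p and miR-31-5p were the only ones beyond 10 times. The third was miR-133a-3p, a muscle miRNA, named here after its values were seen.

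Markers of other cells differed in that library too. The sum of skeletal muscle arms (mir-1a, mir-133a, mir-133b and mir-206) was 1913 CPM in Keluoxin replicate 4, against a range of 286 to 427 CPM in the other 11 libraries, and all 4 tested arms were highest there. The sum of mir-143 and mir-145a, miRNAs of stroma and mural cells, was 6993 CPM, against 2482 to 5114 CPM elsewhere, and again 4 of 4 arms were highest there. The neural retina sum was 275182 CPM, below the range of 361906 to 547300 CPM in the others. The sum of mir-204 and mir-211, which mark pigment epithelium, ciliary body and lens, was 10384 CPM, inside the range of 9446 to 12170 CPM, although 1 of its 4 arms, miR-204-3p, was highest there (91.9 CPM, against 41.7 to 57.5 CPM). The erythroid sum was 424.7 CPM, inside the range of 87.2 to 792 CPM, and the endothelial sum of 1212 CPM lay inside that of 1099 to 2122 CPM. The sum for gut, kidney and gland epithelia was 1327 CPM, just below the range of 1398 to 2362 CPM. Keluoxin replicate 4 also had the shortest mean read length (21.1 nt) and the most distinct sequences (55738). The part of these differences in the levels of miR-184-3p and miR-31-5p was not tested.

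**Figure D3:**
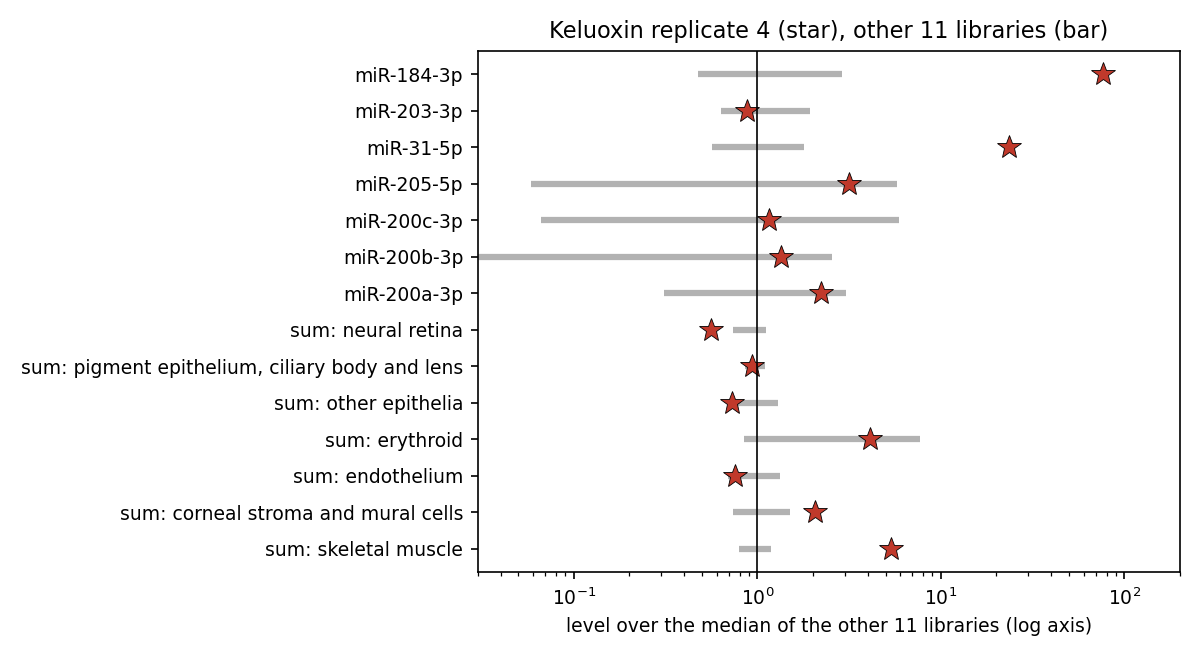
Level in Keluoxin replicate 4 (star) and range of the other 11 libraries (grey bar), each divided by the median of those 11 (log axis), for the 7 tested arms and the summed arms of 7 marker lists. The stars of miR-184-3p (76.4) and miR-31-5p (23.6) lie far right of their bars. Those of the skeletal muscle sum (5.34) and the stroma and mural sum (2.07) also lie right of theirs. Those of the neural retina sum (0.559) and of the sum for other epithelia (gut, kidney and gland, 0.730) lie left. The bar of miR-200b-3p runs off the axis because it was listed at 0 in Keluoxin replicate 1.

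Between the groups, 6 of 32 tested arms of the 7 marker lists passed (18.8%), against 13.7% of all annotated arms. Of these, 1 of 3 erythroid and 1 of 4 muscle arms were higher in Keluoxin, and 2 of 10 neural retina arms, 1 of 5 arms of gut, kidney and gland epithelia, and 1 of 2 endothelial arms were lower. The muscle arm was miR-133b-3p, at 18.8 CPM in Keluoxin replicate 4 and at most 4.75 CPM in any other library. Its call thus leans on that library, and its fit without that library is not given here. No arm of the lists for pigment epithelium, ciliary body and lens (4 tested) or for stroma and mural cells (4 tested) passed.

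MiR-205-5p spread more widely within each group than between them. It was lowest at 0.815, at the median 6.58 and highest at 21.7 CPM in Keluoxin libraries, against 0.401, 13.8 and 39.7 CPM in model libraries. Keluoxin replicate 4 was the highest of its group, model replicate 6 the highest of all, and model replicate 3 the lowest of all. The means were 7.43 ± 7.58 CPM in Keluoxin and 15.7 ± 15.0 in model retina (SD, n = 6 each), a log2 fold change of −1.05 (SE 0.92, edgeR adjusted p = 0.415). Without Keluoxin replicate 4 it was −1.78 (SE 0.96, adjusted p = 0.226).

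The miR-200 family was sparse, with 1512 reads in all libraries together. Its summed level was lowest at 3.05, at the median 16.6 and highest at 39.4 CPM in Keluoxin libraries, against 6.01, 26.2 and 66.9 CPM in model libraries. The highest library was model replicate 2, and Keluoxin replicates 1, 2 and 3 and model replicate 3 were the lowest, all under 7 CPM. No arm of the family passed the test.

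Among the members with the seed AAUACUG, miR-200b-3p was lowest at 0, at the median 4.82 and highest at 15.7 CPM in Keluoxin libraries, against 1.47, 10.8 and 21.5 CPM in model libraries. Its log2 fold change was −0.79 (SE 0.90, edgeR adjusted p = 0.532). MiR-200c-3p, with the same seed, was lowest at 0.407, at the median 4.25 and highest at 10.8 CPM in Keluoxin libraries, against 2.81, 9.14 and 36.5 CPM in model libraries. Its log2 fold change was −1.45 (SE 0.86, adjusted p = 0.237). Keluoxin replicates 1, 2 and 3 held at most 1.36 CPM of either arm and replicates 4, 5 and 6 at least 7.15 CPM, so the Keluoxin libraries themselves lay in 2 ranges.

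MiR-200a-3p, of the other seed, was lowest at 2.65, at the median 4.91 and highest at 10.4 CPM in Keluoxin libraries, against 1.07, 4.58 and 8.98 CPM in model libraries. Its log2 fold change was 0.18 (SE 0.50, edgeR adjusted p = 0.811), and −0.11 without Keluoxin replicate 6 and −0.04 without model replicate 3. Whether it differed from those of miR-200b-3p and miR-200c-3p was not tested. Summed by seed, AAUACUG was at the median 10.5 CPM in Keluoxin and 18.7 CPM in model libraries, and AACACUG at 5.13 CPM in Keluoxin and 5.75 CPM in model libraries. Summed by locus, chromosome 4 was at the median 9.87 CPM in Keluoxin and 15.9 CPM in model libraries, and chromosome 6 at 5.43 CPM in Keluoxin and 9.69 CPM in model libraries. All 4 sums overlapped between the groups.

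The rarest members were miR-141-3p and miR-429. MiR-141-3p had 36 reads, at most 1.32 CPM in Keluoxin and at most 1.43 CPM in model libraries. Reads with 1 difference from both miR-141-3p and miR-200a-3p were shared equally between them. MiR-429-3p had 7 reads, 2 in Keluoxin replicate 2 and 5 in Keluoxin replicate 6, too few to compare the groups. MiR-429-5p had 2. Sequences seen once are not in the tables, so a level of 0 means fewer than 2 reads of any sequence.

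Across the 12 libraries the family members went up and down together, given here as a description. With the group means taken away, the Pearson correlation of log2(CPM + 1) was 0.89 between miR-200a-3p and miR-200b-3p, which share a locus, and 0.88 between miR-200b-3p and miR-200c-3p, which share a seed. It was 0.78 between miR-200a-3p and miR-200c-3p, and 0.84 between miR-200a-3p and miR-205-5p. Without Keluoxin replicate 4 these values were 0.89, 0.87, 0.76 and 0.83. MiR-203-3p stood apart from them, at −0.43 with miR-200a-3p and 0.07 with miR-200c-3p. Between miR-184-3p and miR-31-5p the correlation was 0.93, and 0.41 without Keluoxin replicate 4. The points share libraries and depth.

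The arms most like the abundant members were sought among 504 other annotated arms by the same correlation. For miR-203-3p they were miR-335-5p (0.90), miR-30a-5p (0.88) and miR-30e-5p (0.87), and these changed little without Keluoxin replicate 4 (0.90, 0.88 and 0.89). For miR-31-5p they were miR-1a-3p (0.95), miR-133a-3p (0.95) and miR-24-2-5p (0.93), which became 0.37, 0.32 and 0.64 without that library. For miR-184-3p they were miR-500-3p (0.93), miR-133a-3p (0.92) and miR-1a-3p (0.85), which became 0.65, 0.26 and −0.39. For miR-205-5p they were miR-690-3p (0.77), miR-1291-5p (0.76) and miR-692-1-5p (0.74), which became 0.83, 0.88 and 0.72.

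Apart from mir-429, whose 9 reads split 2 to 7 between the 5p and 3p sides, each hairpin gave over 90% of its reads from one arm. The 2 reads on the 5p side of mir-429 were 15 nt long. They began at position −4, ahead of the mature 5p start at 14, so they are not reads of the mature arm. The 3p arm held 99.98% of the reads of mir-184, 99.98% of mir-203, 98.9% of mir-200b, 98.0% of mir-200c and 93.8% of mir-200a. The 5p arm held 97.7% of the reads of mir-31 and all 688 of mir-205. No member had 10 reads on each arm in 6 libraries, the minimum for the ratio test, which 15% of 147 precursors passed. With a minimum of 2 reads, the log2 ratio of 5p to 3p differed by −1.37 for miR-200a (limma adjusted p = 0.266) and by 0.27 for miR-31 (adjusted p = 0.861).

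On average the 3′ end of miR-184-3p was longer in Keluoxin retina, but the call depended on single libraries. Mean read length was 21.48 to 21.82 nt in Keluoxin libraries and 20.82 to 21.49 nt in model libraries, so the ranges overlapped slightly. The means were 21.6 ± 0.141 nt in Keluoxin and 21.2 ± 0.252 nt in model retina (SD, n = 6 each; difference 0.443 nt, limma adjusted p = 0.0323), where 8.09% of 383 arms passed, 5.48% as longer. The call was lost in 7 of 12 fits that left out 1 library each, namely Keluoxin replicate 3, 5 or 6 or model replicate 2, 3, 4 or 5 (limma adjusted p 0.0503 to 0.0788), while the difference stayed between 0.366 and 0.50 nt. Reads of 22 nt made up 63.1 ± 3.52% of miR-184-3p in Keluoxin and 49.5 ± 6.52% in model libraries, and those of 20 nt 9.85 ± 3.50% in Keluoxin and 15.4 ± 4.47% in model libraries. These shares of 22-nt and 20-nt reads were not tested. For miR-203-3p the mean length differed by −0.20 nt (limma adjusted p = 0.121).

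Frequent forms of miR-184-3p differ only in the last base, shown in capitals as DNA letters with their reads over all libraries.
miR-184-3p, canonical, 30900 reads: tggacggagaactgataagggT
miR-184-3p, last base C, 6361 reads: tggacggagaactgataagggC
miR-184-3p, last base A, 5440 reads: tggacggagaactgataagggA
Most of these reads came from Keluoxin replicate 4 (28421 canonical, 5788 with C and 4759 with A). In the other 11 libraries together the canonical form had 2479 reads, the exact 21-nt form 688, the A form 681, the exact 20-nt form 652 and the C form 573. A exceeded C in all 6 model libraries.
Among 22-nt reads whose first 21 bases were exact, C ended 17.1 ± 4.39% in Keluoxin and 9.96 ± 3.22% in model libraries, and A ended 14.1 ± 2.82% in Keluoxin and 19.2 ± 3.32% in model libraries. The canonical T ended 58.8 ± 4.85% in Keluoxin and 65.2 ± 3.72% in model libraries. These shares were not tested.

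**Figure D4:**
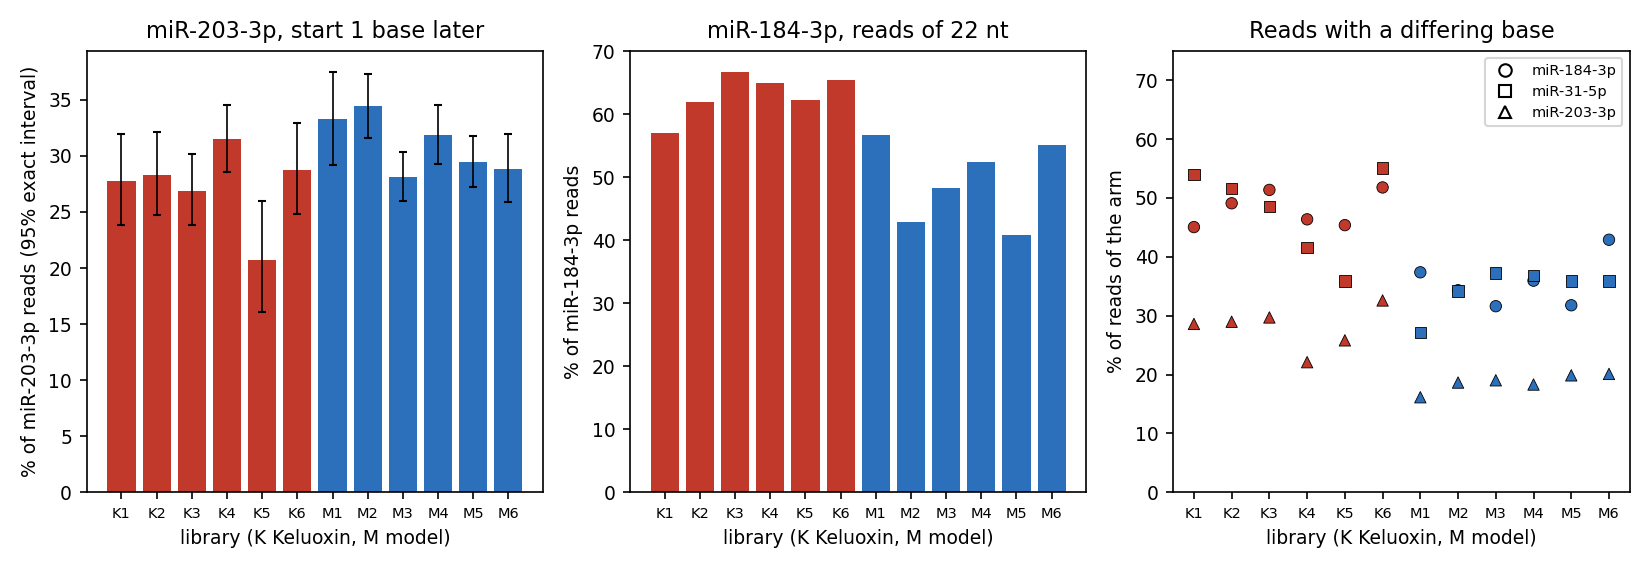
Read make-up per library (K Keluoxin, red; M model, blue): share of miR-203-3p reads that start 1 base later, with exact 95% intervals (left), share of miR-184-3p reads that are 22 nt long (middle), and share of reads with a differing base for 3 arms (right). The 22-nt share, which was not tested, is 57.0% to 66.8% in Keluoxin and 40.9% to 56.8% in model libraries. The differing share of miR-203-3p is 22.1% to 32.6% in Keluoxin and 16.2% to 20.1% in model libraries.

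Reads that differ from the precursor were more frequent in Keluoxin for both arms that could be tested, and for most other arms as well. For miR-184-3p they made up 48.2 ± 3.00% of reads in Keluoxin and 35.7 ± 4.21% in model libraries (limma adjusted p = 0.000319). For miR-203-3p they made up 28.0 ± 3.60% in Keluoxin and 18.7 ± 1.42% in model libraries (adjusted p = 0.000345). With at least 20 reads per library as the minimum, miR-31-5p could be tested as well, at 47.8 ± 7.58% in Keluoxin and 34.5 ± 3.77% in model libraries (adjusted p = 0.00537).

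Of all 383 arms 61.9% passed this test, 59.3% as higher in Keluoxin, so the members went in the direction of most arms. The median difference over these arms was 6.05 percentage points, against 12.5 for miR-184-3p and 9.28 for miR-203-3p. Whether the members differed from the other arms in size was not tested. Over all arms, reads with a difference made up 43.9% to 50.6% of each Keluoxin library and 39.2% to 43.2% of each model library. Differences at the last base were present in 39.4 ± 3.97% of miR-184-3p reads in Keluoxin and 31.5 ± 3.19% in model libraries, and in 17.9 ± 3.86% of miR-203-3p reads in Keluoxin and 10.3 ± 1.47% in model libraries. Differences elsewhere were present in 8.75 ± 3.40% of miR-184-3p reads in Keluoxin and 4.14 ± 1.21% in model libraries, and in 10.1 ± 0.977% of miR-203-3p reads in Keluoxin and 8.37 ± 2.77% in model libraries. Since single-read sequences are not in the tables, rare forms are more completely listed for abundant arms and in deeper libraries. Reads with a difference elsewhere reached 14.6% of miR-184-3p in Keluoxin replicate 4, the highest of that group.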

How the data were processed

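Per the labels' protocols, small RNA libraries were made from total RNA with a NEBNext kit and sequenced on an Illumina instrument. According to the submitters' processing notes, bcl2fastq, cutadapt, Novoalign and Bowtie were used; their versions, the genome build and the miRBase release are not stated there. Each deposited table lists read sequences of 15 to 51 nt with at least 2 reads, their whole-read count, not normalized, and their positions, lengths and differing bases on precursors, per the file headers. Positions carry an added 5. For reads on more than 1 precursor the authors had divided the count; the undivided number in the tag name was used, once per tag.

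Reads were summed per arm, and reads lying on several arms were shared equally, or joined under one name where copies shared over 0.5 of them. Levels were tested with edgeR 4.0.16 in R 4.3.3 (TMM, filter on low counts, quasi-likelihood test, Benjamini-Hochberg at 0.05 over 811 arms), and arm ratios (pseudocount 0.5) and read make-up with limma 3.58.1. DESeq2 1.42.0 was an alternative. The main edgeR and limma fits were also run on simulated data, and the alternatives were not. Pandas 2.3.3, NumPy 2.4.6 and SciPy 1.17.1 ran in Python 3.11.15. Precursors were placed by sequence match to GENCODE M21 (GRCm38).

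Named were the tested member arms and some of the rarer ones, and the 3 arms most like each of the 4 most abundant members. The marker lists were named too, and the text gives their sums and counts. The members and lists were chosen with earlier results of these data known. Alternatives were other scalings, filters and tools, the replicate number as a block, annotated precursors alone, the authors' divided counts, reads of 18 to 26 nt and leaving out libraries. No 2 libraries were copies (chi-square per degree of freedom at least 74.5).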

Additional observations from a re-analysis of the deposited data

Results flagged for a closer look

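Of 26 groups of 6 libraries looked at for a value far from the rest, 4 had one, all in Keluoxin replicate 4. The rule's chance rate of about 1 in 20 holds for independent, normally spread values. The groups here reuse the same libraries, so the 4 cannot be set against that rate. MiR-184-3p stood at 9995 CPM there, against 70.0 to 179 CPM in the other 5 Keluoxin libraries. MiR-31-5p stood at 543 CPM, against 13.1 to 28.4 CPM. MiR-205-5p stood at 21.7 CPM, against 0.815 to 7.65 CPM, but 2 model libraries, at 23.6 and 39.7 CPM, were higher. The share of miR-184-3p reads at the most frequent start was 99.8% in that library and 100% in the other 5, where it rested on far fewer reads. With 5 equal values, any lower share would have been flagged.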

How the results depend on the processing

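The call of miR-203-3p, the only tested arm called, held in all 23 alternative fits of the levels (log2 fold change −1.11 to −0.63). Leaving out 1 library each gave log2 fold changes of −0.31 to 3.87 for miR-184-3p, −0.42 to 2.20 for miR-31-5p and −0.11 to 0.44 for miR-200a-3p. Without model replicate 1 and Keluoxin replicate 4 together, miR-184-3p was at −0.27 and miR-31-5p at −0.62. With DESeq2 neither arm received an adjusted p. The count of called arms, 140, was 237 with DESeq2, 75 with annotated precursors only and 228 without model replicate 1 and Keluoxin replicate 4, and 72 to 245 without 1 library (72 when model replicate 4 was left out, 86 for model replicate 3 and 245 for model replicate 1). The share called higher was 53.6%, 77.4% scaled to total reads and 39.6% by the upper quartile. Arm ratio calls, 22, were 11 with a minimum of 2 reads and 10 to 24 without 1 library. Length calls, 31, were 38 with at least 20 reads, and 14 to 73 without 1 library (73 when Keluoxin replicate 4 was left out), and start calls, 14, were 5 to 24 (24 when model replicate 1 was left out); mismatch calls, 237, were 224 to 248. The causes were not tested.

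Libraries of the 2 groups share replicate numbers. The correlations of same-numbered libraries were 0.0494 to 0.253, and in 0 pairs was each library the best match of the other. This check cannot exclude a shared batch or day, and the labels do not say what the numbers mean. With the replicate block, 132 arms were called in levels, 13 in arm ratio, 51 in length and 3 in start, and miR-184-3p was at 0.51 and miR-31-5p at 0.15. Depth limits the miR-200 family, miR-141 and miR-429.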
